A study of Mus musculus with 90 samples.

Results

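Before a cell divides, a small set of proteins attaches each chromosome to the spindle and holds the sister chromatids together until every attachment is made. The transcripts of 50 mouse genes for this machinery were followed in single oocytes and early embryos: 6 of the spindle assembly checkpoint, 6 Aurora kinase and chromosomal passenger genes, 2 shugoshins, 8 kinetochore genes, 7 motors and other spindle proteins, securin and separase, 5 cohesin subunits, and 14 subunits or partners of the anaphase-promoting complex (APC/C). They were listed by symbol, with earlier results of these data known. The count table has 24422 genes and a row for 49 of the 50. All 49 passed the filter on low counts and were among the 16511 genes tested. Sgol2, a protector of centromeric cohesin, has no row under that symbol. Rows named Sgol2a and Sgol2b exist and were not taken in its place.

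The study asked what the absence of maternal Plag1, a zinc finger transcription factor, does to early development in CD-1 mice. WT and Plag1 knockout (KO) females were superovulated and mated with WT males, so the embryos called matPlag1KO are heterozygous and carry a WT paternal allele. Single MII oocytes (unmated females, 21 to 23 h after hCG), 2c embryos (45 to 47 h) and 8c embryos (71 to 73 h) of each genotype were lysed singly and their RNA read at the 5′ end of each transcript. Of 90 libraries, 78 were kept: 16 WT and 14 KO oocytes, 11 and 11 2c embryos, and 15 and 11 8c embryos. The donor females are not in the labels, so p-values measure the spread between oocytes or embryos, some of which may be siblings. Cumulus cells were removed with hyaluronidase after collection, and zygotes were then cultured. The females were sexually mature and, by the study's methods, 1 to 3 months old.

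The checkpoint kinases and Mad and Bub proteins sit at unattached kinetochores and keep the APC/C from acting. Once it acts, the APC/C marks securin (Pttg1) and cyclin B for destruction, which frees separase (Espl1) to cut cohesin. Oocytes use meiotic cohesin subunits (Rec8, Smc1b, Stag3) beside shared ones (Smc3), wait at metaphase II, and carry the transcripts for the first mitoses as maternal RNA. Most maternal RNA is cleared by the 2c stage in mice, when the embryo's own genome becomes active.

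Gene counts per kept library ranged from 222357 to 2502421 in oocytes, from 92475 to 256529 at 2c and from 214053 to 696870 at 8c, so values are least precise at 2c. Levels are CPM, a gene's counts scaled to the library's total gene counts, after TMM scaling, which adjusts libraries on the assumption that most genes do not change. Transcripts were captured by an oligo(dT) primer, which needs a poly(A) tail, and each captured copy was counted at its 5′ end. A level therefore does not rise with transcript length. It counts RNA captured by its tail, and tail length was not measured. Plag1 itself gave 326 counts over the 16 WT oocytes, with at least 1 in each, and 4 counts in 3 of the 14 KO oocytes. At 2c the order was the opposite, with 1 count in 11 WT embryos and 91 counts in 9 of 11 embryos labelled matPlag1KO, so that group is called by its label here. These embryos carry a WT paternal Plag1 allele, so counts of Plag1 in them neither check the label nor by themselves go against it. At 8c it gave 10 counts in 5 of 15 WT embryos and 6 counts in 4 of 11 matPlag1KO embryos. Of 10 oocyte genes, all 10 had counts in both oocyte groups, with summed levels of 6193 to 36174 CPM (median 10031) in WT and 6309 to 34364 CPM (median 26924) in KO. Of 10 cumulus and granulosa genes, 5 had counts in each oocyte group, and their summed level was 0 to 26.8 CPM per oocyte, with Amh, Foxl2, Ptx3 and Tnfaip6 at 0 in both. Libraries were made in 2 plates, each with both genotypes and all stages. The wells were not balanced: 9 of 11 WT 2c libraries lay in row C and all 11 labelled matPlag1KO in row D, and at 8c no well held both genotypes, so well and genotype cannot be told apart at 8c, and at 2c only 2 wells held both genotypes.

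**Figure D1:**
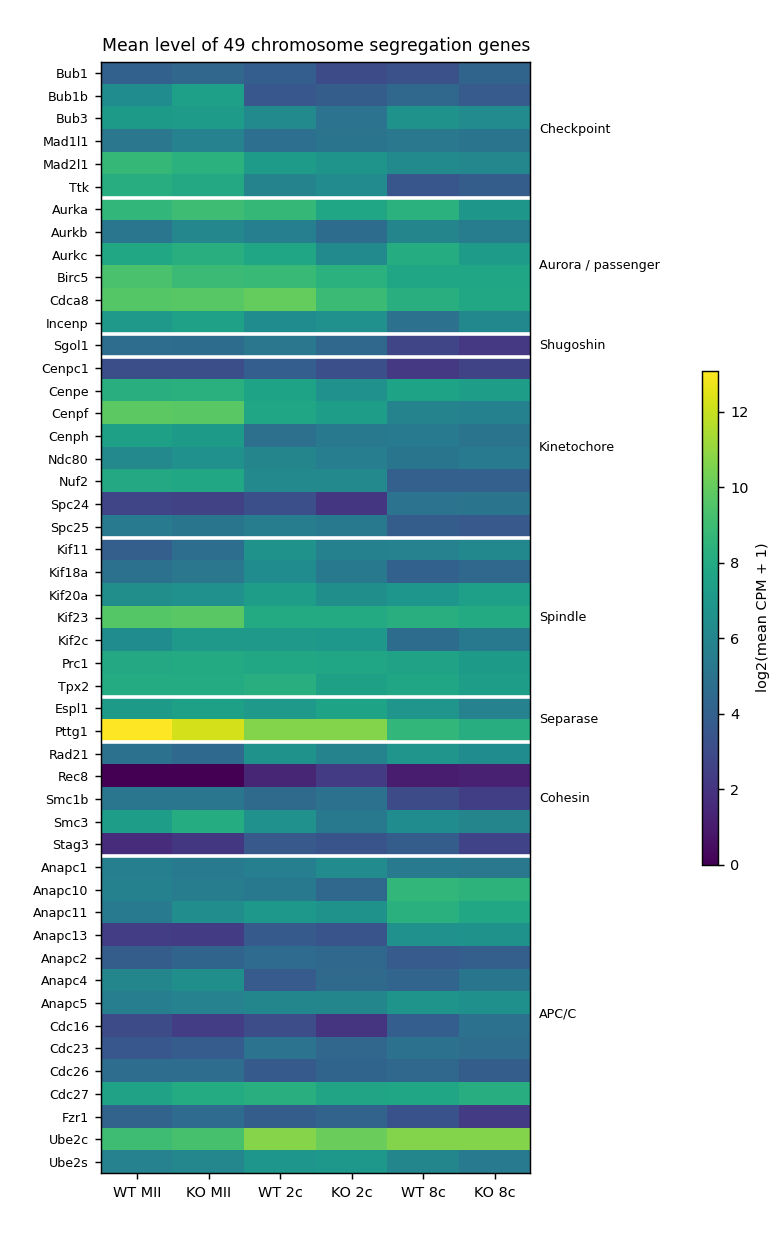
Mean level of each of the 49 genes in the 6 groups, as log2 of mean CPM + 1 (colour), with genes in rows by role. Pttg1 is the brightest row in oocytes, Anapc10 and Anapc13 are brighter at 8c than at the other stages, and Rec8 is at 0 in both oocyte groups.

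Most of the 49 transcripts were detected in every group, at levels that differed by gene. Securin (Pttg1) had the highest level of the 49 genes in oocytes, with 2728, 8799.6 and 13956 CPM (lowest, median and highest) in 16 WT oocytes. The APC/C-specific ubiquitin-conjugating enzyme Ube2c had the highest median at 8c, with 1042, 1467 and 2351 CPM in 15 WT embryos. At the other end, Rec8, the cohesin subunit that separase cuts in meiosis, had 0 counts in all 30 oocytes. In the 16 WT oocytes that is 0 of 10051429 gene counts, which allows up to 0.298 CPM. It had 3 counts in 2 WT 2c embryos and 12 counts in 3 embryos labelled matPlag1KO, so no fold change is given for it. Stag3, its meiotic partner, had 31 counts in 6 of 16 WT oocytes and 24 counts in 9 of 11 WT 2c embryos.

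At the 2c stage, 5 of the 49 genes were lower in embryos labelled matPlag1KO than in WT and 0 were higher. The 5 were Aurkc, a meiotic Aurora kinase, Cdca8 (Borealin), a subunit of the passenger complex that places the kinase at centromeres, Bub3, a checkpoint protein, Cenpe, a kinetochore motor, and Kif18a, a motor that limits the length of kinetochore microtubules. A gene was called where its Benjamini-Hochberg adjusted p, over all 16511 genes and from the quasi-likelihood test of edgeR, was under 0.05. Of all genes, 2.62% were called lower and 2.3% higher. At an unadjusted p under 0.05, 13 members were lower and 0 higher, and DESeq2 called the same 5 genes lower and 0 higher. Of all 16511 genes, 3380 had an unadjusted p under 0.05, and DESeq2 called 401 lower and 733 higher. The median log2 difference of the 49 genes was -0.39, against 0.12 over all genes tested.

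Aurkc had 40.2, 218 and 377 CPM (lowest, median and highest) in 11 WT embryos and 27.7, 79 and 127 CPM in 11 embryos labelled matPlag1KO. All but 1 WT embryo were above every embryo labelled matPlag1KO. The level was 2.73-fold lower, a log2 difference of -1.45 ± 0.37 (SE), adjusted p = 0.0128. Its paralogs pointed the same way without passing the test: Aurkb, the mitotic passenger kinase, differed by -1.10 ± 0.52 (SE) and Aurka, the spindle pole kinase, by -1.05 ± 0.35 (SE), with adjusted p of 0.202 and 0.0578. In Aurka, 235, 387 and 1089 CPM in WT stood against 95.7, 216 and 321 CPM, and 7 of 11 embryos labelled matPlag1KO were below every WT embryo.

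Cdca8 had 475, 1013 and 1567 CPM in WT and 187, 436 and 1365 CPM in embryos labelled matPlag1KO. The groups overlapped, since 1 embryo labelled matPlag1KO (well D6 of plate A) had 1365 CPM while 6 of 11 were below every WT embryo. The log2 difference was -1.08 ± 0.26 (SE), adjusted p = 0.00696. Of the other passenger genes, the scaffold Incenp differed by 0.25 ± 0.44 (SE) and Birc5 (Survivin) by -0.46 ± 0.31 (SE), and neither passed the test.

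Bub3 had 11.5, 87.6 and 124 CPM in WT and 7.97, 27.7 and 78.5 CPM in embryos labelled matPlag1KO, a log2 difference of -1.32 ± 0.41 (SE), adjusted p = 0.0427. All 11 embryos labelled matPlag1KO were below the WT median, and 9 of them lay within the WT range. No other checkpoint gene passed the test, with log2 differences from -0.93 (Bub1) to 0.45 (Ttk, the kinase Mps1).

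Cenpe had 72.9, 216 and 271 CPM in WT and 53, 83.2 and 208 CPM in embryos labelled matPlag1KO, a log2 difference of -1.01 ± 0.27 (SE), adjusted p = 0.0154. Kif18a had 28.7, 76.3 and 207 CPM and 6.5, 33.5 and 116 CPM, a difference of -1.15 ± 0.36 (SE), adjusted p = 0.043. Both groups overlapped for both genes. Kif11 (Eg5), the motor that pushes spindle poles apart, did not pass the test at 2c (-1.02 ± 0.35 (SE), adjusted p = 0.0703), although 46, 115 and 139.6 CPM in WT stood against 15.9, 45.1 and 154 CPM. All 7 motor and spindle genes had log2 differences below 0 (median -0.73), with Kif18a the farthest from 0 and Kif23, a central spindle motor, the nearest. Smc3, a cohesin ring subunit, had 56.6, 91.9 and 139 CPM in WT and 3.76, 39 and 73.6 CPM in embryos labelled matPlag1KO, and its difference of -1.40 ± 0.56 (SE), adjusted p = 0.126 did not pass. The 14 APC/C genes had a median of -0.25, with 8 below and 6 above 0, and none passed.

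**Figure D2:**
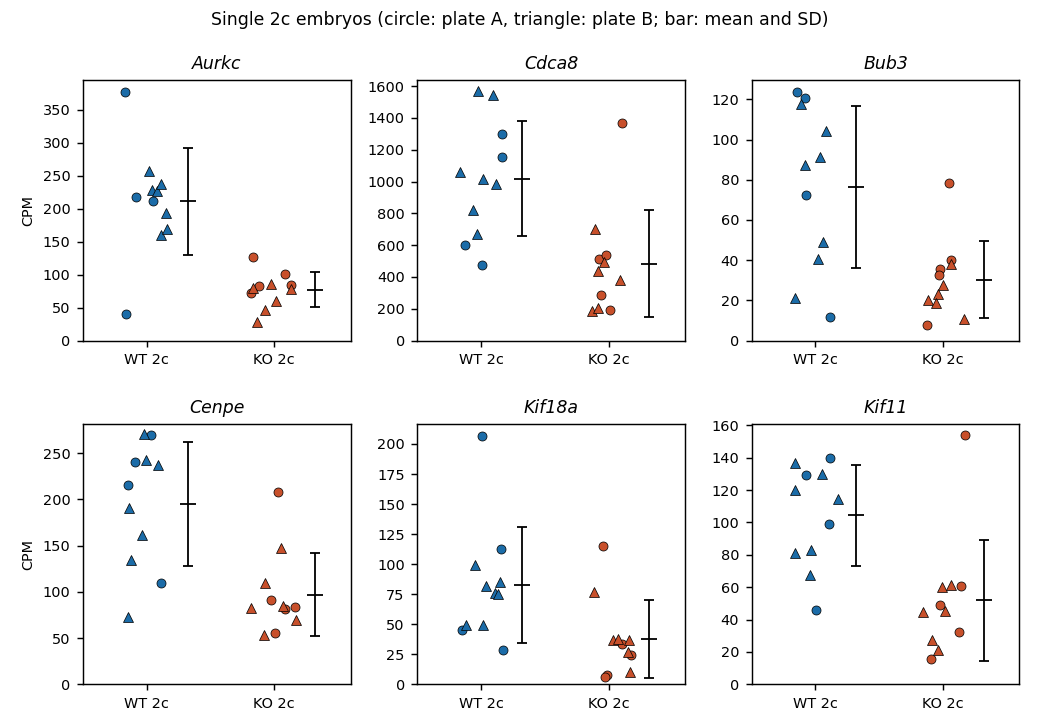
Level in CPM (y axis from 0) of 6 genes in single 2c embryos, 11 WT and 11 labelled matPlag1KO (KO), with circles for plate A, triangles for plate B, and the mean and SD beside the points. In Aurkc the groups meet only at 1 low WT embryo (40.2 CPM), and in Cdca8, Cenpe and Kif11 the highest KO point is the same plate A embryo.

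Within plates, fewer genes were called. With plate B alone (7 WT and 6 labelled matPlag1KO), Aurkc (-1.76, adjusted p = 0.0226), Bub3 (-1.72, 0.0333) and Cdca8 (-1.50, 0.00507) passed. With plate A alone (4 and 5), edgeR called 0 of all genes and 8 members had an unadjusted p under 0.05, 5 lower (Anapc10, Aurkc, Cenpe, Kif18a and Ndc80) and 3 higher (Anapc1, Bub1b and Rec8). Of all 15073 genes tested in plate A, 1339 had an unadjusted p under 0.05. There the 5 genes called with both plates had log2 differences of -1.43 to -0.67, all below 0. With spike-in scaling only Cdca8 passed (-1.03 ± 0.30 (SE), adjusted p = 0.0492), and the other 4 kept their direction, at -1.30 for Aurkc, -1.14 for Bub3, -0.87 for Cenpe and -0.95 for Kif18a. The only wells with libraries of both genotypes were D4 and D5, each with a WT embryo in plate A and an embryo labelled matPlag1KO in plate B. For Aurkc the WT embryo had 40.2 against 60.0 CPM in D4 and 377 against 46.2 CPM in D5. Bub3 had 11.5 against 38.2 CPM in D4 and 124 against 23.1 CPM in D5, and Cenpe had 109 against 147 CPM in D4 and 270.2 against 84.7 CPM in D5, in the same order of genotypes. So the WT embryo was lower in D4 and higher in D5 for these 3 genes. Kif18a had 28.7 against 27.3 CPM in D4 and 45 against 77 CPM in D5, and Cdca8 had 603 against 496 CPM in D4 and 1154 against 701 CPM in D5. Cdca8 was thus higher in the WT embryo of both wells, and Kif18a was close in D4 and lower in the WT embryo of D5. Marker lists moved with the groups too: 8 genes of the 2c stage summed to 83.3 to 1097 CPM in WT and 254 to 1657 CPM in embryos labelled matPlag1KO, with 5 of 8 having counts in each and Tcstv1, Tcstv3 and Zscan4f at 0, and 10 oocyte genes summed to 1891 to 7506 CPM and 2721 to 9509 CPM. Their part in the differences was not tested.

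The 200 bases before the start of the genes that differed between genotypes are shown because these genes were called together, with short elements common in mitotic gene promoters in capitals. These are the CCAAT box (CCAAT on either strand) and the cell cycle homology region, CHR (TTTGAA or TTCGAA on either strand, with no overlap between these and the CCAAT box in the windows shown). The windows were read from the mm9 genome, with the strand of the gene, at chr7:6947896-6948095 (plus) for Aurkc, chr4:124614162-124614361 (minus) for Cdca8, chr7:138703684-138703883 (plus) for Bub3, chr3:134875327-134875526 (plus) for Cenpe, chr2:109120695-109120894 (plus) for Kif18a and chr2:172196071-172196270 (minus) for Aurka, which differed at 8c.
Aurkc: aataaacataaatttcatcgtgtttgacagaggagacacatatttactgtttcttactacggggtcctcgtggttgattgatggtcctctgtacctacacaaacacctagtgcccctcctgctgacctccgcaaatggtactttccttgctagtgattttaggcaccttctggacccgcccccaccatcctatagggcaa
Cdca8: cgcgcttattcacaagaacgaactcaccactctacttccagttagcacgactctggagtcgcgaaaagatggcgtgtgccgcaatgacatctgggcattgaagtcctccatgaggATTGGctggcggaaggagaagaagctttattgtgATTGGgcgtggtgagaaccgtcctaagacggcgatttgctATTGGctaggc
Bub3: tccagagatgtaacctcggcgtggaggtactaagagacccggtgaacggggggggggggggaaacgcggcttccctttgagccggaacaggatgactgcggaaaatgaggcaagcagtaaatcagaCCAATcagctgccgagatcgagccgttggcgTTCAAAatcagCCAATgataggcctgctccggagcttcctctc
Cenpe: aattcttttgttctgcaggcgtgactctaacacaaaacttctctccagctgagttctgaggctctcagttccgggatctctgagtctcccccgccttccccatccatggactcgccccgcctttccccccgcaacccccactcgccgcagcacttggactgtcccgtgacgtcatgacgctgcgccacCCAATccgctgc
Kif18a: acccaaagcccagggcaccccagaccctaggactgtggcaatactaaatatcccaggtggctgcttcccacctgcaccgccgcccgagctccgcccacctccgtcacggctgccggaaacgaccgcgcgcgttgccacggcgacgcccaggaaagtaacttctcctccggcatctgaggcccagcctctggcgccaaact
Aurka: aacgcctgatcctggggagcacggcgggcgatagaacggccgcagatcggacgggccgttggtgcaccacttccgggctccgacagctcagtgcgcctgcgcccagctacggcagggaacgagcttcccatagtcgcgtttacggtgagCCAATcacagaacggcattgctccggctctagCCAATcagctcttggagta
CCAAT boxes stand in the windows of Cdca8 (3), Bub3 (2), Aurka (2) and Cenpe (1), and the one nearest to the start begins 11 bases before it in Cdca8 and 12 in Cenpe. Bub3 also has a CHR, on the reverse strand, that begins 43 bases before the start. Aurkc and Kif18a have neither in this window. Of the windows of 49 members, 27 (55.1%) hold a CCAAT box and 9 (18.4%) a CHR of either form, against 30.9% and 12% of 24323 gene windows. The members with both are Aurkb, Bub1b, Bub3, Espl1, Kif11, Smc1b and Ube2c.

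The study also lists 31-base matches to a de novo PLAG1 motif upstream of genes, and Kif18a and Smc3 are on that list. The list holds genes picked by the study for lower levels in early matPlag1KO embryos. Being on it is therefore not independent of the genotype difference in these libraries, and it says nothing of how common the motif is among the members. Both were found again in mm9, on the plus strand, at chr2:109119542-109119572, which begins 1353 bases before the Kif18a start, and at chr19:53674119-53674149, 767 bases before the Smc3 start. Capitals mark the bases that differ between them.
Kif18a: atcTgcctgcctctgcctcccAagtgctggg
Smc3: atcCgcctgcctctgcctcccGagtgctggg
Counted from 1 at the 5′ end, with the base of Smc3 first, they differ by C4T and G22A. A match is a stretch of letters and not evidence of binding. Whether both lie in copies of a repeated element, such as B1 of the mouse genome, was not checked. Their likeness is therefore no evidence of shared control.

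**Figure D3:**
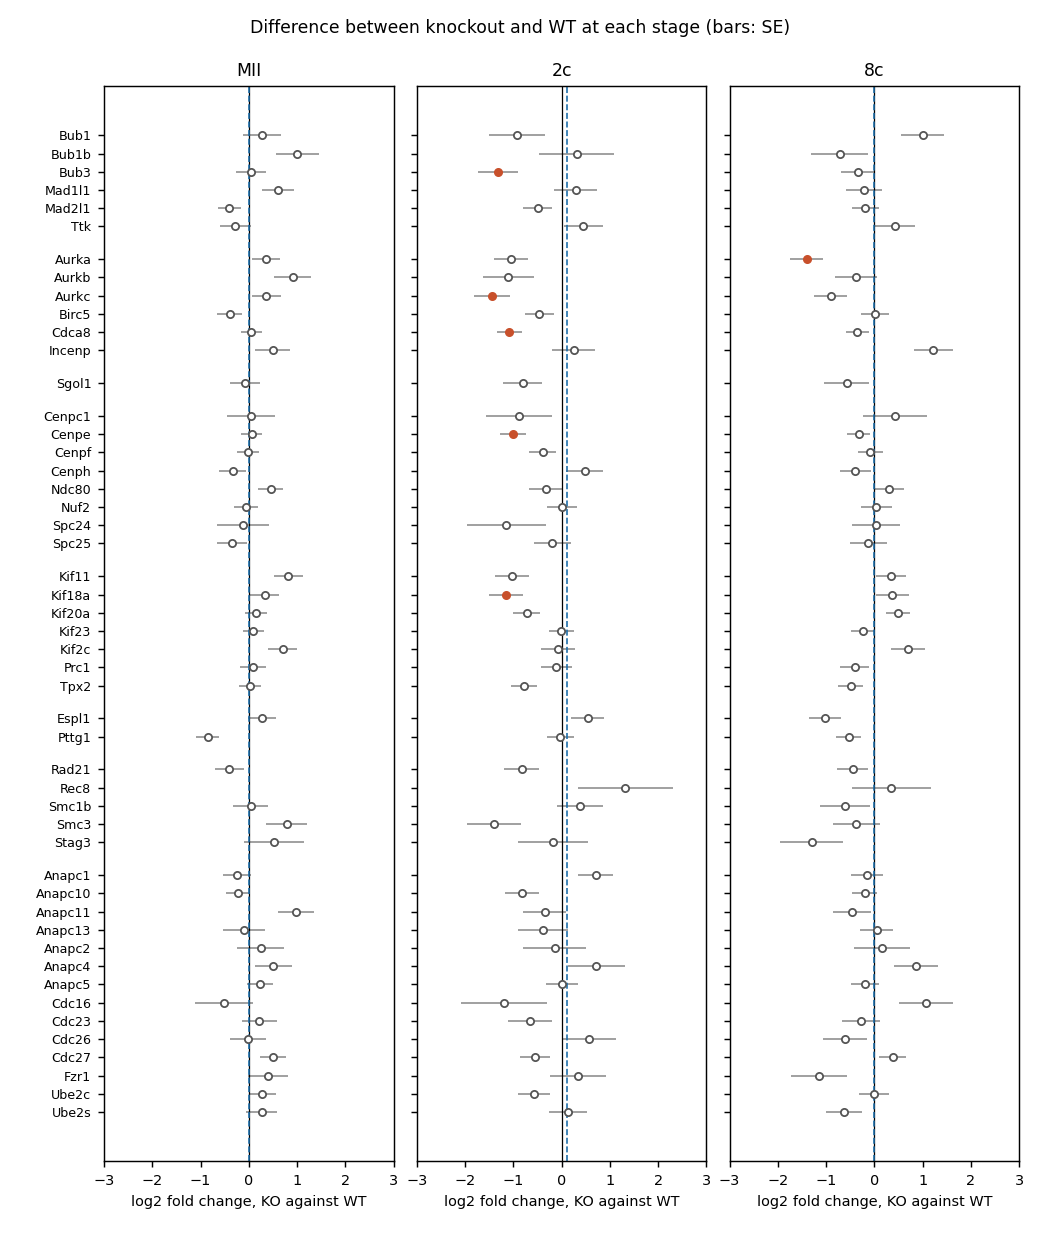
Log2 fold change of KO against WT for the 49 genes at each stage, with SE as bars, filled points for an adjusted p under 0.05 and the median of all tested genes as a dashed line (Rec8, at 0 in both oocyte groups, is left out at MII). The filled points are 5 genes at 2c and Aurka at 8c, all below 0.

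In oocytes, edgeR called 0 of the 49 genes between KO and WT, where 0.309% of all genes were called higher and 0.472% lower. At an unadjusted p under 0.05 there were 6 members, and DESeq2 called 1, Pttg1. Of all 16511 genes, 1690 had an unadjusted p under 0.05 in oocytes, and DESeq2 called 33 higher and 49 lower. Pttg1 had 2728, 8799.6 and 13956 CPM in WT and 2346, 4752 and 6699.9 CPM in KO oocytes, a log2 difference of -0.85 ± 0.24 (SE), adjusted p = 0.0643. Well numbers paired the oocytes of the 2 plates: in 14 wells a WT oocyte of 1 plate shares its well with a KO oocyte of the other. With the well as a block and the plate as a term, 8 members were higher and 2 lower in KO oocytes, of 48 tested, where 4.92% of all genes were called higher and 1.18% lower. Pttg1 (-0.73 ± 0.08 (SE), adjusted p = 6.32e-14) and the checkpoint gene Mad2l1 (-0.44 ± 0.12 (SE), adjusted p = 0.0104) were lower. Aurkb, Kif2c (a microtubule-depolymerising kinesin), Kif11, Anapc4, Anapc11 and Cdc27 were higher in the blocked fit by 0.48 to 0.90 on the log2 scale, and Bub1b and Smc3 by 2.09 and 1.91. These values are scaled by TMM. With spike-in totals in the same blocked fit, an alternative chosen after these values were seen, the median of all genes was 0.46 higher in KO oocytes on the log2 scale, and 22 members were called higher and 1 lower, where 20.1% of all genes were called higher and 0.393% lower. Pttg1 was the 1 lower (-0.32 ± 0.12 (SE), adjusted p = 0.0418), and Mad2l1 did not pass (-0.04 ± 0.16 (SE), adjusted p = 0.901). The 8 higher genes were called higher again. Without the block, spike-in scaling gave Pttg1 -0.28 ± 0.26 (SE), adjusted p = 0.667, and Mad2l1 -0.24 ± 0.32 (SE), adjusted p = 0.808.

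The values of Bub1b (the checkpoint protein BubR1) and Smc3 in oocytes split within the groups. Bub1b had 7.56, 149.6 and 316 CPM (lowest, median and highest) in 8 WT oocytes of plate A and 0, 7.95 and 36.6 CPM in 8 of plate B. In KO oocytes it had 93.4, 207 and 244 CPM in 7 of plate A and 6.35, 171 and 341 CPM in 7 of plate B. Smc3 followed, with 15.1, 324 and 468 CPM and 0, 5.29 and 47.7 CPM in WT of plates A and B, and 175, 377 and 436 CPM and 4.23, 194 and 406 CPM in KO. The low values were in all 8 WT oocytes of plate B, in the WT oocyte of well A7 in plate A, and in the KO oocytes of wells A1 and A2 in plate B, and they were the same oocytes for both genes. The oocyte marker Gdf9 was also low in the WT oocytes of plate B, which are 8 of the 16 WT oocytes used at MII. It had 571, 4025 and 10225 CPM in WT of plate A and 209, 387 and 636 CPM in WT of plate B. In KO it had 3177, 4145 and 6229 CPM in plate A and 268, 3243 and 6444 CPM in plate B. The summed level of the 10 oocyte genes is given above. In plate A alone, Bub1b and Smc3 differed between genotypes by 0.28 and 0.24 on the log2 scale, with adjusted p of 0.915 and 0.908. In plate B alone the differences were 3.81 and 4.03, with adjusted p of 2.42e-05 and 7.84e-07. The test was passed in plate B only, and the difference between plates was not tested. Gdf9 encodes a growth factor secreted by oocytes, and the part in the result of what moved with its level was not tested.

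High values of Bub3 fell in the same wells in both plates. It had 488 and 408 CPM in the WT oocytes of wells A4 and A8 in plate A, and 429 and 455 CPM in the KO oocytes of the same wells in plate B. The other 14 WT and 12 KO oocytes had at most 147 and 219 CPM. For Ttk the log2 difference was 1.29 in plate A (adjusted p = 0.146) and -1.40 in plate B (adjusted p = 0.0154).

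**Figure D4:**
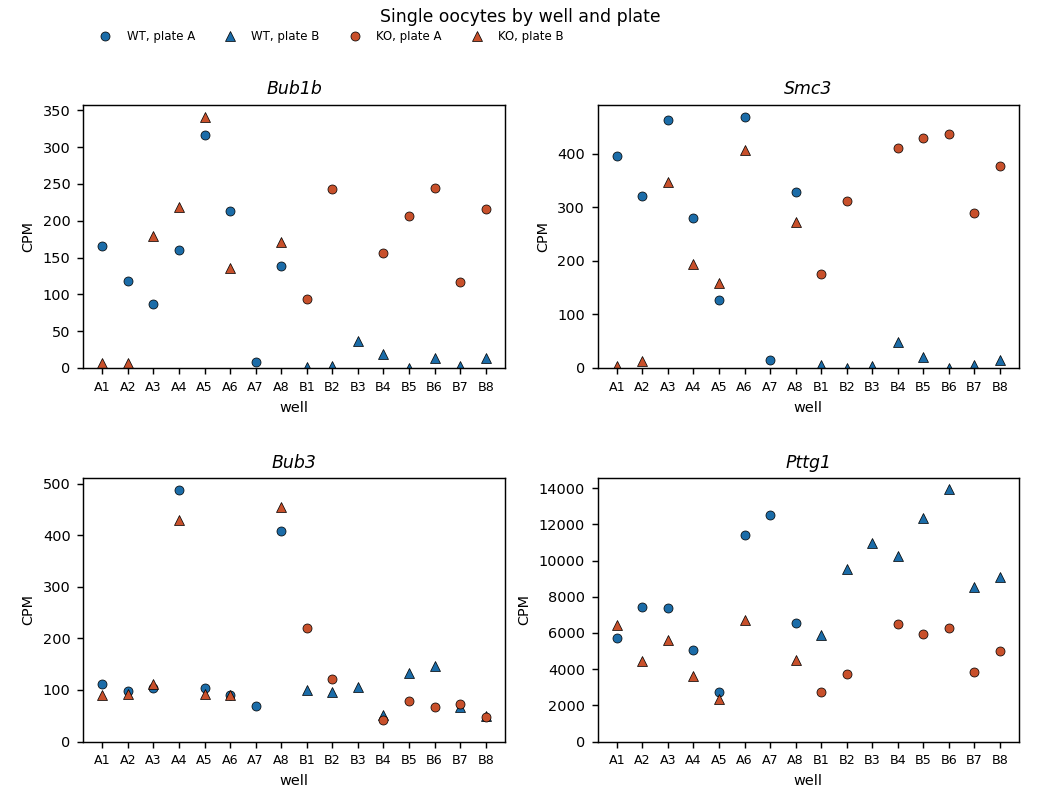
Level in CPM (y axis from 0) of 4 genes in single oocytes by well (x axis), with WT in blue, KO in orange, circles for plate A and triangles for plate B. Bub1b and Smc3 are low in the same 11 oocytes, Bub3 is high only in wells A4 and A8 of both plates, and Pttg1 is higher in most WT than KO oocytes.

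At the 8c stage, Aurka was lower in matPlag1KO than in WT embryos and was the only member called, where 0.527% of all genes were called lower and 1.21% higher. Aurka had 181, 300.2 and 568 CPM in 15 WT and 47.5, 111 and 250.0 CPM in 11 matPlag1KO embryos. Of the matPlag1KO embryos, 9 were below every WT embryo, and 10 of the 15 WT embryos were above every matPlag1KO embryo. The level was 2.65-fold lower, a log2 difference of -1.41 ± 0.33 (SE), adjusted p = 0.0115. Within plates the differences were alike, -1.46 and -1.36, without passing the test (adjusted p = 0.352 and 0.214). With spike-in scaling the difference was -1.29 ± 0.44 (SE), adjusted p = 0.164. WT 8c libraries lay in wells 1 to 4 of their rows and matPlag1KO libraries in wells 5 to 8, so the well cannot be told apart from the genotype here. At an unadjusted p under 0.05, 4 members were higher and 5 lower, and DESeq2 called 1 higher, Incenp (1.36). Of all 16511 genes, 2363 had an unadjusted p under 0.05 at 8c, and DESeq2 called 267 higher and 81 lower.

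None of the 5 genes called at 2c was called at 8c: Aurkc differed by -0.91 ± 0.33 (SE), Cdca8 by -0.35, Bub3 by -0.35, Cenpe by -0.33 and Kif18a by 0.37 on the log2 scale. A test of the change in the genotype difference between 2c and 8c called 0 of the 49 genes, and 8 had an unadjusted p under 0.05 (edgeR). Of all 16511 genes, 2.3% were called in either direction, and 2958 had an unadjusted p under 0.05. Kif20a, a central spindle motor, was called without wells A4, A8 and F3 (-1.43 ± 0.37 (SE), adjusted p = 0.0305) and narrowly missed with all wells (adjusted p = 0.0521).

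Between oocyte and 2c the genotype difference did change for 3 members, where 3.31% of all genes were called in either direction. Kif11 was the largest in size, at -1.84 ± 0.47 (SE), adjusted p = 0.0139. It had 2.32, 10.2 and 50.2 CPM in WT and 8.46, 23.8 and 55.8 CPM in KO oocytes, and its levels at 2c are given above. Aurkc changed by -1.81 ± 0.48 (SE), adjusted p = 0.0176 and Cdca8 by -1.13 ± 0.34 (SE), adjusted p = 0.0406. In oocytes Aurkc and Cdca8 had differed by 0.36 and 0.05. With spike-in scaling, Aurkc missed the threshold (adjusted p = 0.0626) and Kif11 and Cdca8 passed. These 3 share their 2c values with the comparison of genotypes at 2c.

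From MII to 2c in WT, 36 of the 49 genes fell and 2 rose when libraries were scaled to their spike-in RNA. This keeps the change in total captured RNA. Changes between stages within a genotype are on that scale unless TMM is named, while levels are in CPM. Of all genes, 51.3% fell and 14.1% rose. The median log2 change was -1.69 (-1.71 without Rec8), against -1.46 over all genes, and 29 of 49 were below that. With TMM scaling, which measures the change relative to most genes, 11 members fell and 12 rose, with a median close to 0. Of all 16511 genes, 3814 fell and 4540 rose with that scaling. All 6 checkpoint and all 6 Aurora and passenger genes fell with spike-in scaling, as did 6 of 8 kinetochore genes, 5 of 7 motors and spindle genes, both of Pttg1 and Espl1, Sgol1, 2 of 5 cohesin genes and 8 of 14 APC/C genes.

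The 4 members with the largest falls were also called lower with TMM scaling. Cenph, a constitutive kinetochore protein, had 101, 169 and 282 CPM in WT oocytes and 13.9, 25 and 61.4 CPM in WT 2c embryos, with no overlap. Its log2 change was -4.15 ± 0.43 (SE), adjusted p = 8.45e-14, and -2.64 with TMM scaling. Pttg1 went from a median of 8799.6 to 1627 CPM, a change of -3.71 ± 0.33 (SE), adjusted p = 5.95e-17 (-2.41 with TMM scaling). Every WT 2c embryo was below every WT oocyte for Pttg1, since the highest embryo had 2446 and the lowest oocyte 2728 CPM. Anapc4, an APC/C scaffold subunit, changed by -3.96 ± 0.64 (SE), adjusted p = 1.2e-07, with 0 to 348 CPM in oocytes and 0 to 43.2 CPM at 2c. Bub1b had the lowest value, -5.30 ± 0.84 (SE), adjusted p = 8.11e-08, with a large difference between plates: it was -8.80 in plate A and -0.30 (adjusted p = 0.785) in plate B. The plate A value rests on 1 count in 1 of 4 WT 2c embryos. The plate B value starts from WT oocytes that were all low, with 28 counts over 8 of them.

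Among the Aurora kinases, Aurka, Aurkb and Aurkc changed by -1.61 ± 0.43 (SE), adjusted p = 0.000922, by -1.20 (adjusted p = 0.0439) and by -1.80 (adjusted p = 0.000221). Relative to most genes they did not pass, at 0.06, 0.48 and -0.15 with TMM scaling, where Aurka and Aurkb turn direction. In plate B alone none of the 3 passed. Aurkb was also not called in plate A alone, with the plate as a term (adjusted p = 0.0827), or without wells A4, A8 and F3 (0.239). The counts of Aurkb were 14.1% ± 10.5 (SD, n = 16) of those of Aurkb and Aurkc together in WT oocytes, 19.6% ± 11.8 (n = 11) at 2c and 24.5% ± 18.6 (n = 15) at 8c, so that on average Aurkc gave most of the counts at each stage, and the means lay within 1 SD of each other.

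Kif11 was the only gene with more than a few counts that rose. It went from 2.32, 10.2 and 50.2 CPM in WT oocytes to 46, 115 and 139.6 CPM in WT 2c embryos. The log2 change was 1.28 ± 0.37 (SE), adjusted p = 0.00171 with spike-in scaling, and 2.84 with TMM scaling. In the KO line its change was -0.80 ± 0.39 (SE), adjusted p = 0.0642, and the test of that difference is given above. In plate A alone the rise in WT did not pass (0.66 ± 0.62 (SE), adjusted p = 0.364). The other gene called, Rec8, rests on 3 counts.

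Of the cohesin genes, Smc1b, the meiotic partner of Smc3, fell by 2.02 on the log2 scale (adjusted p = 0.00016), and its change of -0.58 with TMM scaling did not pass. Smc3 was called lower at -2.56 ± 0.60 (SE), adjusted p = 0.000151, yet in plate B alone, whose WT oocytes were low, it was higher at 2c by 2.13 ± 0.61 (SE), adjusted p = 0.00357. Rad21, the cohesin subunit of mitosis, had 8.08, 22.7 and 90.7 CPM in WT oocytes and 46.9, 95 and 188 CPM at 2c, a change of -0.03 ± 0.44 (SE), adjusted p = 0.983 with spike-in scaling and of 1.84 ± 0.32 (SE), adjusted p = 8.12e-07 with TMM scaling. Stag3 changed by 0.29 ± 0.73 (SE) and did not pass, and by 2.24 ± 0.68 (SE), adjusted p = 0.0041 with TMM scaling.

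From 2c to 8c in WT, 16 members rose and 8 fell, a median log2 change of 0.58 against 0.53 over all genes. Of all genes, 31.9% rose and 16.2% fell. With TMM scaling the split was 5 up and 17 down, where 3475 of all 16511 genes rose and 4767 fell. APC/C genes made up 7 of the 16 that rose, and none of the 14 fell. By spike-in scaling the other risers were 3 checkpoint genes (Bub1b, Bub3, Mad1l1), Aurkc, 3 kinetochore genes (Cenpe, Cenph, Spc24), Kif23 and Rad21.

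The 4 largest rises among genes with a mean of at least 20 CPM held under both scalings. Anapc10 (Doc1), which helps the APC/C bind its substrates, had 7.07, 40.3 and 56.1 CPM at 2c and 225, 382 and 599 CPM at 8c. Every 8c embryo was above every 2c embryo, and the change was 4.29 ± 0.41 (SE), adjusted p = 3.16e-15 (3.41 with TMM scaling). Anapc13, a small stabilising subunit, had 0 to 28.1 CPM at 2c and 47.1 to 149.5 CPM at 8c without overlap, a change of 3.79 ± 0.50 (SE), adjusted p = 5.29e-10. Anapc11, the catalytic RING subunit, changed by 2.24 ± 0.52 (SE), adjusted p = 0.000203, with 77.7 to 251 CPM at 2c and 205 to 455 CPM at 8c. Spc24, of the Ndc80 complex that binds microtubules, rose by 2.85 ± 0.69 (SE), adjusted p = 0.000331, from 0, 4.56 and 37.5 CPM to 3.86, 27.2 and 72.4 CPM. Its partner Nuf2 fell over the same interval (-1.27), and Ndc80 and Spc25 did not pass (0.08 and -0.85), so the 4 subunits of that complex did not move together.

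The 4 members that fell most were Sgol1, Ttk, Kif2c and Kif18a. Sgol1, which protects centromeric cohesin, had 5.75, 35.9 and 54.6 CPM at 2c and 0, 3.22 and 14.9 CPM at 8c, a change of -1.73 ± 0.44 (SE), adjusted p = 0.000597. Kif18a had 28.7, 76.3 and 207 CPM at 2c and 4.19, 14.9 and 26.8 CPM at 8c, and in CPM every 8c embryo was below every 2c embryo. Scaled to spike-in counts, the groups overlapped. The change of Kif18a with spike-in scaling was -1.46 ± 0.37 (SE), adjusted p = 0.000654. Ttk and Kif2c changed by -1.59 ± 0.42 (SE), adjusted p = 0.000967, and by -1.57 ± 0.41 (SE), adjusted p = 0.000847. The falls were larger with TMM scaling, at -2.62, -2.39, -2.46 and -2.46. Aurkc was called higher by 1.29 ± 0.43 (SE), adjusted p = 0.00951 with spike-in scaling and did not pass with TMM scaling (0.38), and neither Aurka (0.43) nor Aurkb (1.13) passed.

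The highest Rad21 values at 8c were in 1 well of both plates. Its log2 change was 1.11 ± 0.46 (SE), adjusted p = 0.036, but the WT 8c embryos of well F3 had 359 CPM in plate A and 338 CPM in plate B, against 56.6 to 96.7 CPM in the other 13. Without wells A4, A8 and F3 of both plates, an alternative chosen after these values were seen, it was 0.41 ± 0.44 (SE), adjusted p = 0.457. Bub3, which is high in A4 and A8, fell from MII to 2c by 2.70 with all wells and by 1.86 without them, and passed both times. Its change from MII to 8c was -1.39 ± 0.41 (SE), adjusted p = 0.00162, and did not pass without these wells (-0.60 ± 0.37 (SE), adjusted p = 0.143). Its difference between genotypes at 2c was called without these wells too (-1.35 ± 0.35 (SE), adjusted p = 0.012).

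**Figure D5:**
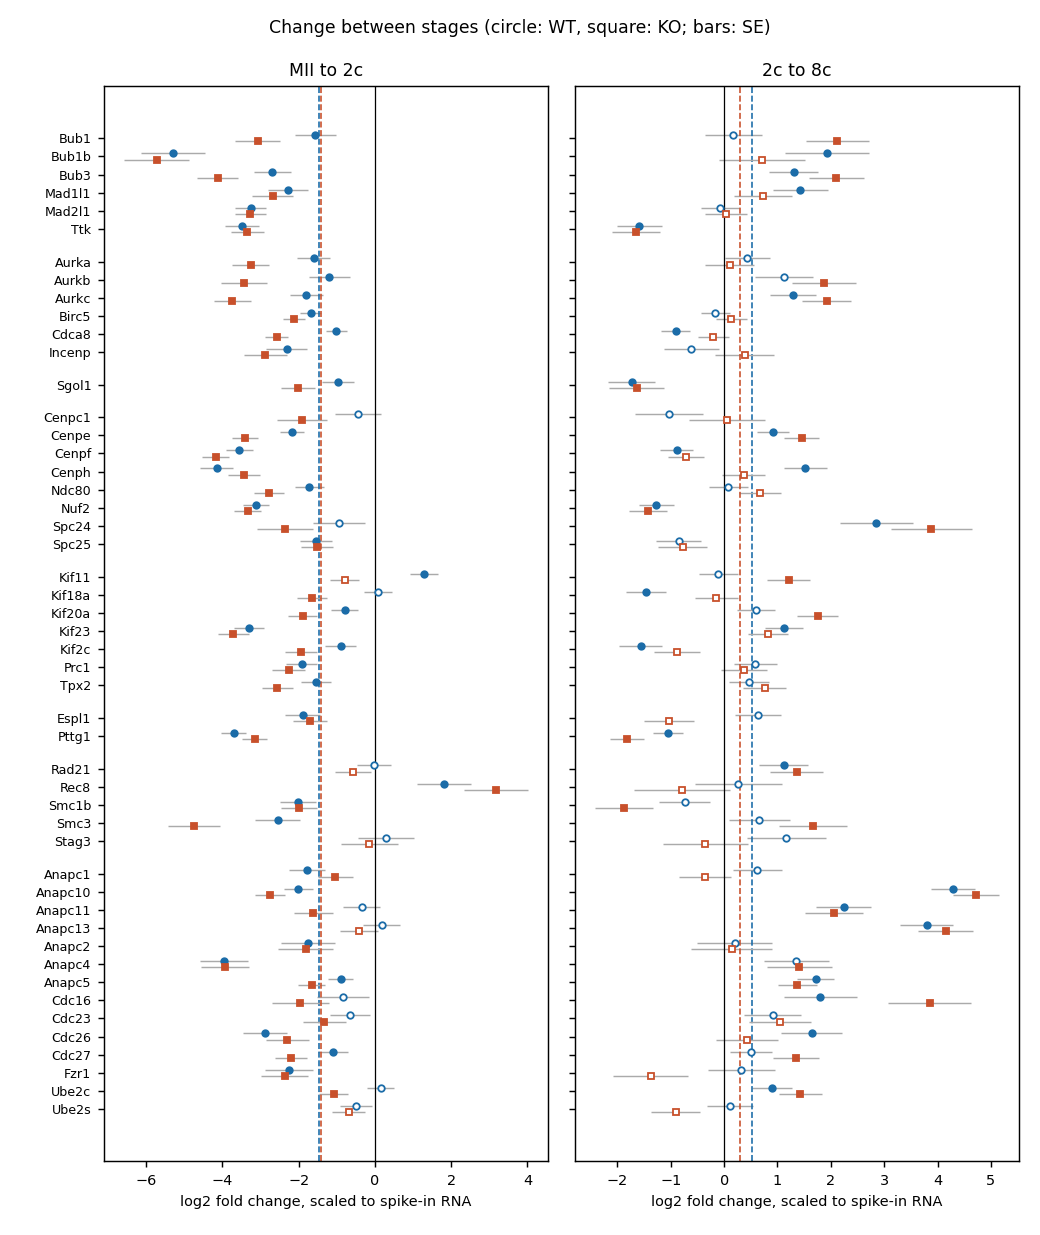
Log2 change over both intervals (MII to 2c, left, and 2c to 8c, right), scaled to spike-in RNA, for the 49 genes in WT (circles) and KO (squares), with SE as bars, filled points for an adjusted p under 0.05, and the median of all genes as dashed lines. Most points lie below 0 from MII to 2c, and Anapc10 and Anapc13 lie near 4 from 2c to 8c (the points of Rec8, with few or no counts, are fitted values).

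In the KO line most members also fell after MII. From MII to 2c, 43 members fell and 1 (Rec8, with 12 counts at 2c) rose, where 50.3% of all genes fell and 13.5% rose. The median was -2.30 against -1.42. With TMM scaling 20 members fell and 8 rose, where 3192 of all 16511 genes fell and 4799 rose. From 2c to 8c, 18 members rose and 5 fell, where 29.1% of all genes rose and 19.5% fell. With TMM scaling 10 members rose and 15 fell, where 3501 of all genes rose and 5008 fell. Anapc10 and Anapc13 rose by 4.72 and 4.15, and Sgol1 and Ttk fell by 1.64 and 1.65. Kif11 rose in this interval (1.21 ± 0.41 (SE), adjusted p = 0.00994), and in WT its change was -0.11. The test of the change in the genotype difference from 2c to 8c did not call Kif11 (adjusted p = 0.0925).

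Over the whole interval from MII to 8c in WT, 10 members were higher and 31 lower, where 27.1% of all genes were called higher and 43.6% lower. With TMM scaling 11 members were higher and 20 lower, where 5949 of all 16511 genes were higher and 5996 lower. The 10 members higher with spike-in scaling were 5 APC/C genes (Anapc5, Anapc10, Anapc11, Anapc13, Ube2c), Spc24, Kif11, Stag3, Rad21, which was not called without wells A4, A8 and F3 (adjusted p = 0.423), and Rec8, with 7 counts at 8c. Among the lower ones, Ttk, Pttg1, Cenpf and Nuf2 changed by -5.07, -4.76, -4.45 and -4.40 on the log2 scale.

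A list of 69 other genes of the same machinery, of which 68 were tested, gave counts beside these. At 2c, 5 were lower in embryos labelled matPlag1KO and 0 higher, with a median of -0.19, 21 at an unadjusted p under 0.05, and 2 higher and 6 lower by DESeq2. The 5 were Cenpa (-1.52), the centromeric histone, Oip5 (-1.29) and Mis18a (-1.37), which help to load it, Anapc7 (-1.39), an APC/C subunit, and Aurkaip1 (-1.56). Of all 16511 genes at 2c, 2.62% were called lower and 2.3% higher, and 3380 had an unadjusted p under 0.05. DESeq2 called 733 of all genes higher and 401 lower. In oocytes 1 of the list was higher, Ska1 (1.23), where 0.309% of all genes were called higher. At 8c edgeR and DESeq2 called 0 of the list, with 9 at an unadjusted p under 0.05, against 2363 of all genes. From MII to 2c in WT 45 fell and 6 rose, where 51.3% of all genes fell and 14.1% rose. From 2c to 8c 14 rose and 9 fell, where 31.9% of all genes rose and 16.2% fell.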

How the data were processed

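The authors made 2 pools of 5′-end libraries, with ERCC spike-in RNA and molecular identifiers in each, mapped reads to mm9 with TopHat and counted genes with HOMER; versions and the strand used for counting are not given in the sources used here. The deposited table holds raw counts. Of 49 members, 4 overlap a gene row on the opposite strand. Kif20a and Cdc23 overlap each other, and Kif20a also overlaps Brd8. Reads where these overlap cannot be told apart if strand was not used. The same 3 rows of other genes (Snora19, Mir3084-1 and Gm38437) reach across both Kif11 and Smc3, and which bases within them were counted is not given. Libraries with a median CPM under 1 over expressed genes (12 of 90) were left out. Genes reaching 1 CPM in 5 or more libraries were tested with edgeR 4.0.16 (quasi-likelihood, 6 group means, Benjamini-Hochberg adjusted p), with TMM factors between genotypes and spike-in totals between stages. DESeq2 1.42.0 and other scalings, filters, plates and wells were alternatives (leaving out wells A4, A8 and F3, and the well block with spike-in scaling, were chosen after seeing the data), and the code was tested on simulated data. Within each group, no 2 libraries were alike enough to be repeat counts of the same library (lowest chi-square per degree of freedom 3.54). Pairs from different groups, such as same-well oocytes of opposite genotype, were not checked in this way. Same-well oocytes of opposite genotype deviated together from the means of their group and plate (r of 0.148 to 0.782, median 0.424, over 8418 genes, 14 wells), so well pairs were used as a block. Same-well embryos of the same genotype did so too, with r of 0.104 to 0.416 (median 0.215, 12 pairs) at 8c. At 2c, r was 0.0295 to 0.262 (median 0.161, 6 pairs). Apart from the blocked fit in oocytes, all tests treat same-well libraries as separate, so their p-values do not take this into account. Intervals and floors of 3 counts cover counting error only. The members and lists were chosen with earlier results of these data known. Named members are those called between genotypes, the 4 called members with the highest and lowest log2 change in each WT stage comparison (mean of at least 20 CPM), the Aurora and cohesin genes, and members absent or filtered; others named with values were chosen after these were seen.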

Additional observations from a re-analysis of the deposited data

Results flagged for a closer look

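The difference between KO and WT changed from oocytes to 2c embryos for 3 members by the test of that change (edgeR, Benjamini-Hochberg adjusted p). It was -1.84 for Kif11 (adjusted p = 0.0139), -1.81 for Aurkc (0.0176) and -1.13 for Cdca8 (0.0406) on the log2 scale. Kif11 was at 14.4 ± 12.1 CPM (SD, n = 16) in WT and 25.9 ± 13.6 CPM (SD, n = 14) in KO oocytes, and at 104 ± 31.1 CPM (SD, n = 11) in WT and 52 ± 37.4 CPM (SD, n = 11) in 2c embryos labelled matPlag1KO. No formal test for single outlying values was applied to groups of 11 to 16 libraries.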

How the results depend on the processing

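The 30 results for named genes were recomputed 231 times in all: 185 kept their direction and side of the threshold, 42 kept the direction and missed the threshold, and 4 turned. The 4 were Aurka (0.064) and Aurkb (0.48) from MII to 2c with TMM scaling, Rec8 from MII to 2c in plate A alone (0, with no counts), and Smc3 from MII to 2c in plate B alone (2.13). Members called between genotypes in oocytes were 0 in edgeR, 1 with median-ratio factors and with DESeq2 (Pttg1), 3 in plate B alone, 10 with a replicate block by well, and 23 where that replicate block used spike-in scaling. The pairing by well was fitted only in oocytes, since few or no wells held both genotypes later, and same-well pairs of the same genotype were not fitted as a block. At 2c the 5 became 3 with median-ratio factors, 3 with all libraries of at least 1000 counts, 3 in plate B alone, 1 with spike-in scaling and 0 in plate A alone. At 8c the 1 became 0 with spike-in scaling and in either plate alone, and 2 with DESeq2. From MII to 2c, calls went from 38 to 23 in WT and from 44 to 28 in KO with TMM scaling, and to 18 in WT in plate B alone. From 2c to 8c they went from 24 to 9 in WT and from 23 to 10 in KO in plate A alone, and from MII to 8c in WT from 41 to 27 in plate B alone. Calls for the change from oocytes to 2c went from 3 to 5 with the plate as a term and to 5 without wells A4, A8 and F3, and from 2c to 8c from 0 to 1 (Kif20a) without those wells. The cause of these changes was not tested; plates alone also hold fewer libraries. With a median total of 148473 gene counts in WT 2c libraries, a level of a few CPM is less than 1 count there.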
